A study of Canis lupus familiaris with 12 samples.

Results

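The later response of mast cell tumour cells to masitinib was examined by comparing cells after 72 h of treatment with cells after 12 h, over 6 of the 12 arrays of the series (3 flasks per time point, total RNA on Affymetrix Canine Genome 2.0 arrays). C2 is a single canine mast cell tumour line whose KIT carries a juxtamembrane duplication that keeps the receptor active, and both groups received 100 nM masitinib in the same medium. The other 6 arrays, before treatment (0 h) and at 24 h, served to tell a late change from a return towards the starting level. All probe sets entered except the 111 Affymetrix controls, which left 42924, of which 29254 carried 1 gene symbol and represented 15115 genes. Untreated cultures at 12 h or 72 h were not analysed here, so the length of exposure to the inhibitor cannot be told apart from the age of the culture.

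KIT is the receptor for stem cell factor and drives growth and survival of mast cells through the RAS, ERK and PI3K pathways. Masitinib blocks its kinase activity together with that of the platelet-derived growth factor receptors and Src family kinases. Genes placed directly under such a pathway respond within hours of its block, whereas cell cycle exit, changes of differentiation state and adaptation to a continued block take longer, and some early responses fade while the drug is still present.

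Values are log2 expression values, so a difference of 1 is a doubling, and each gene is described by its probe set with the highest mean signal. A gene was called when the limma adjusted p was under 0.001 and the change exceeded 1.5-fold. The 12 arrays had medians between 5.892 and 5.95, and arrays of the same time point correlated at r = 0.9952 to 0.9979. Added poly-A control transcripts were 0.18 higher on the log2 scale at 72 h than at 12 h (8.92 ± 0.109 and 8.74 ± 0.0591, SD, n = 3 each). The paper's methods do not state how much of these transcripts was added, and the reason for this difference was not tested. The 3′ minus 5′ difference of the actin control probe sets was 1.46 ± 0.256 at 72 h and 1.13 ± 0.263 at 12 h, and that of GAPDH 0.340 ± 0.05 and 0.278 ± 0.0474. The replicates are flasks of a single line, so p-values measure the spread between these flasks.

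Most measured mast cell markers were high at both times. The defining markers named here, the chymase CMA1, the carboxypeptidase CPA3, the IgE receptor chains FCER1A and MS4A2, the histamine-forming enzyme HDC and KIT, had means from 12.93 to 14.60 over both times, against a median of 6.61 over all genes. The remaining measured markers were lower, SLC18A2 with means of 9.04 at 72 h and 9.07 at 12 h, and GATA2 with 9.60 and 8.20. SLC18A2 had a mean of 9.59 at 0 h. The summed linear signal of the 8 measured markers was 108399 to 114991 at 72 h and 91775 to 92704 at 12 h. KIT mRNA itself measured 13.35, 13.42 and 12.24 at 72 h and 13.24, 13.25 and 13.19 at 12 h. The third 72 h array was the low one, the others were above all 12 h arrays, and the difference of −0.22 ± 0.28 (SE) was not significant (adjusted p = 0.629), with a value of 0.16 without that array. Its actin 3′ minus 5′ difference was the highest of all arrays (1.68). Its poly-A control mean was 9.03, against 8.82 and 8.90 on the other 72 h arrays. The part of RNA quality in the low values of that array was not tested. PDGFRA, another masitinib target, was also lowest on that array (5.92, 5.98 and 5.28 at 72 h, against 6.34, 6.13 and 6.52 at 12 h) and was not called (−0.60, adjusted p = 0.014), although it passed under scaling to the poly-A controls (−0.78). PDGFRB, LYN and FYN differed by 0.01, −0.07 and 0.15 and were not called.

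A large part of the transcriptome moved again after 12 h. Of the 15115 genes, 1558 (10.3%) differed between 72 h and 12 h, 725 being higher (4.8%) and 833 lower (5.51%). Over probe sets, 1181 were higher (4.04%) and 1599 lower (5.47%), 2780 in all (9.5%), so that 57.5% of the calls were falls, or 80.9% when the arrays were scaled to the poly-A controls. Falls were the larger changes. More than 4-fold differences were found for 36 genes that rose and 111 that fell. The arrays of both times did not overlap for 44.4% of genes, so a lack of overlap alone says little about a single gene. At 24 h, 681 genes (4.51%) already differed from 12 h, with 213 higher (1.41%) and 468 lower (3.1%), and 571 (3.78%) differed between 72 h and 24 h, with 297 higher at 72 h (1.96%) and 274 lower (1.81%). Probe sets with no symbol or several, of which 1273 (9.31%) were called, entered none of these counts.

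Most of these late changes concerned genes that had not been called in the first 12 h, but these were 13518 of the 15115 genes. Of the 833 genes lower at 72 h, 612 had not been called at 12 h against 0 h, 155 had already fallen and 66 had first risen. Of the 725 genes higher at 72 h, 485 had not been called at 12 h, 149 had already risen and 91 had first fallen. As shares, 4.53% of the genes not called at 12 h fell later and 3.59% rose. Genes called early changed more often, as 16.3% of the early falls fell further and 23.1% of the early rises rose further. Both contrasts use the same 12 h arrays, so an error in those arrays enters both with opposite sign. The position of a gene at 72 h relative to 0 h, which does not use the 12 h arrays, is therefore given beside the reversals. By that comparison 2988 genes (19.8%) were called, 1320 higher (8.73%) and 1668 lower (11%).

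**Figure D1:**
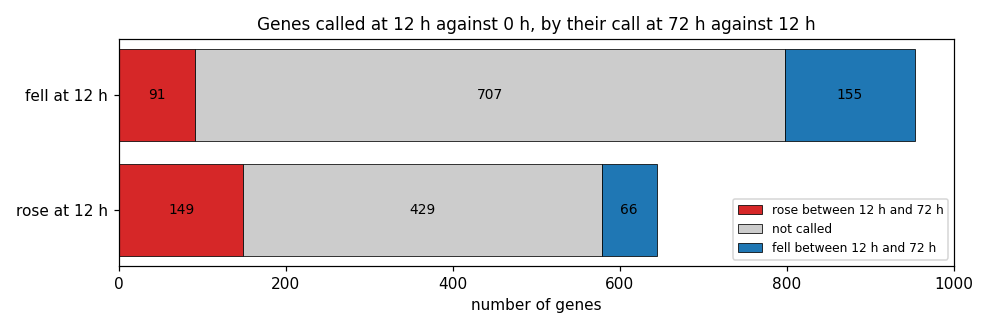
Number of genes (horizontal axis) called lower or higher after 12 h of masitinib against 0 h (rows), divided by their call at 72 h against 12 h (colours). Of 953 early falls 91 came back up and 155 went further down, and of 644 early rises 66 came back down and 149 went further up.

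Seen from the early response, return was the less frequent outcome. At 12 h, 953 genes had fallen (6.3% of all genes) and 644 had risen (4.26%), together 1597 (10.6%). Of the 953 early falls, 91 (9.55%) came back up by 72 h and 155 (16.3%) fell further. The other 707 did not change by the call, and 546 of them were still lower than at 0 h. Of the 644 early rises, 66 (10.2%) came back down and 149 (23.1%) rose further, while 322 of the remaining 429 were still higher than at 0 h. Those that fell and came back made up 0.602% of all genes, and those that rose and came back 0.437%. Counted over probe sets the numbers were 136 (0.465%) and 133 (0.455%).

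By value, much of the early change of these genes was undone at 72 h and less of it at 24 h. The genes were chosen for a called change of more than 1.5-fold back by 72 h. A large share undone at 72 h therefore follows in part from that choice. The share at 24 h was not chosen in this way, so setting both side by side does not date the return. Among the 91 genes that came back up, a median of 81.5% of the early fall was undone at 72 h (range 25.6% to 233%) and 27.4% at 24 h. Of these genes, 75 were no longer called against 0 h, 13 were still lower and 3 were above the starting level by the call. By value alone, 29 of the 91 had passed the 0 h level. Among the 66 that came back down, a median of 100% of the early rise was undone at 72 h (34.6% to 338%) and 25.8% at 24 h. By the call, 48 no longer differed from 0 h, 8 were still higher and 10 were below the starting level. By value alone, 33 of the 66 had passed it. A value in the direction of the return was already seen at 24 h for 78 of the 91 and for 55 of the 66 genes.

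The strongest recovery was that of CCL2, the chemokine that attracts monocytes. It measured 11.09, 11.21 and 11.18 at 72 h, against 8.18, 8.15 and 8.13 at 12 h. All 72 h arrays were about 3 units above the 12 h arrays, with a difference of 3.00 ± 0.064 (SE, adjusted p = 2.19e-11), or 8.02-fold. Over the time course its mean was 10.93 at 0 h, 8.15 at 12 h, 9.35 at 24 h and 11.16 at 72 h. The end did not differ from the start by the call (0.23).

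Immediate early transcription factors, which respond to growth factor signals without new protein synthesis, differed in how far they returned. FOS measured 8.30, 8.25 and 8.08 at 72 h and 5.46, 5.22 and 5.57 at 12 h, a rise of 2.80 ± 0.11 (adjusted p = 1.23e-09) that ended 0.31 above 0 h, not called. Its other probe set moved by 0.46 and was not called. EGR1 measured 7.24, 6.87 and 6.96 at 72 h and 5.45, 5.05 and 4.71 at 12 h. Every 72 h array lay above every 12 h array (1.95 ± 0.16, adjusted p = 1.05e-06), yet EGR1 remained 1.53 below its 0 h level of 8.56 and its other probe set (0.68) was not called. MYC, a regulator of growth and ribosome production, rose by 1.06 to 10.32, 10.24 and 10.29, against 9.19, 9.23 and 9.23 at 12 h. After an early change of −0.65, MYC ended 0.42 above 0 h, not called. JUN, which had not fallen early, rose by 2.07. Of 21 measured immediate early genes 5 rose and 0 fell by limma at 72 h against 12 h, where 10 were higher and 2 lower at an unadjusted p under 0.05. Over all genes 4.8% were called higher and 5.51% lower, and 21.6% were higher and 20.4% lower at that unadjusted p, so list counts are to be read against these shares. Here and below, each list count of 0 was also 0 with the methods' analysis of variance. The remaining members of this list were not called, and the median difference of the list was 0.13, against 0.02 over all genes, but −0.049 when scaled to the poly-A controls.

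The feedback genes of the ERK pathway did not behave as 1 group. DUSP6, the phosphatase that inactivates ERK and whose transcript follows ERK activity, measured 6.69, 6.52 and 6.81 at 72 h and 6.31, 6.45 and 6.27 at 12 h, far below the 10.92 to 10.97 seen at 0 h. Its difference of 0.33 ± 0.084 was not called (adjusted p = 0.00949), and it was 4.27 below the starting level at 72 h. ETV5, ETV4, SPRED1 and DUSP5, chosen here after their values were seen, likewise were called lower than at 0 h at both times and were not called between them (−0.16, −0.15, 0.29 and 0.14). In contrast, 3 of the 16 measured members rose: the stress-responsive phosphatase DUSP1 (9.59, 9.48 and 9.62 at 72 h, against 8.34, 8.32 and 8.22 at 12 h), the survival gene IER3 (1.62) and PHLDA1 (1.42). By limma 0 fell, with 1 lower at an unadjusted p under 0.05. DUSP1 and IER3 were back at levels not called against 0 h, and the list median was 0.16, or −0.014 with poly-A scaling.

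**Figure D2:**
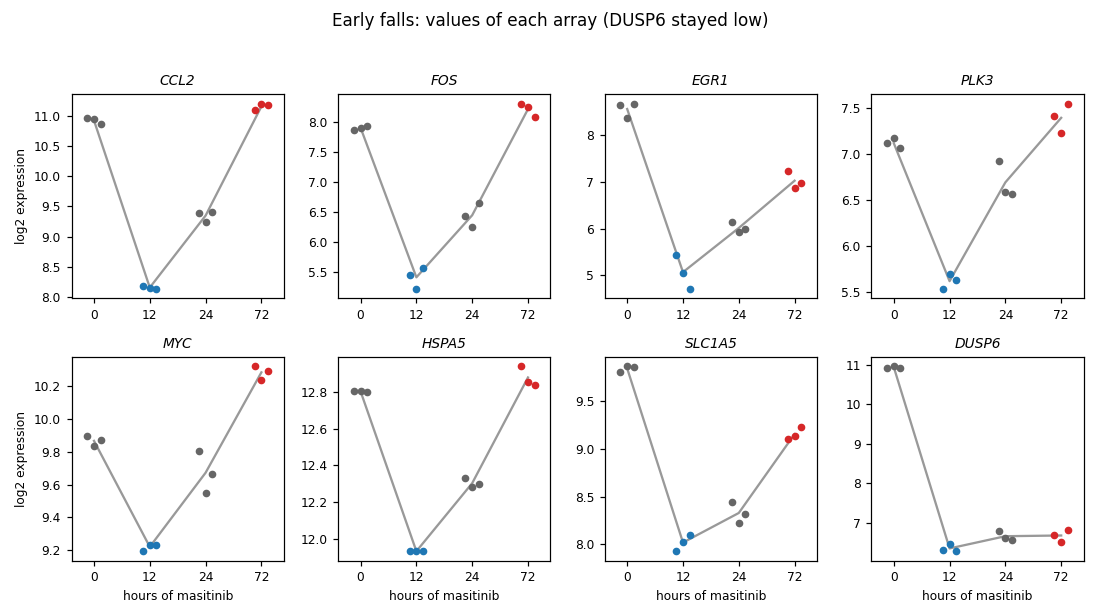
Log2 expression (vertical axes, scaled for each gene) of 8 genes that fell at 12 h, on 3 arrays at each of 0, 12, 24 and 72 h of masitinib (horizontal axes, evenly spaced; blue 12 h, red 72 h, grey the other times; line, means). CCL2, FOS, PLK3, MYC and HSPA5 returned to levels not called against 0 h, EGR1 and SLC1A5 in part, and DUSP6 stayed near its 12 h level.

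Other genes of this kind had roles in stress, transport and growth. The stress-activated kinase PLK3 rose by 1.78 ± 0.10 (7.41, 7.23 and 7.55 at 72 h, 5.53, 5.70 and 5.63 at 12 h), the inositol transporter SLC5A3 by 1.74, TNFAIP8L3 by 1.59, the RNA helicase DDX31 by 1.32 and RP1, a photoreceptor microtubule protein, by 1.32. None of these differed from 0 h by the call. The cyclin CCND2 (0.84) and the transcription factor E2F5 (0.97) recovered, and VEGFA, the ligand of KDR, measured 10.16, 10.06 and 10.15 at 72 h and 8.99, 9.15 and 8.86 at 12 h (1.12 ± 0.079), although its other probe set moved by 0.28 and was not called. Within the secretory pathway, the endoplasmic reticulum chaperone HSPA5 measured 12.94, 12.86 and 12.84 at 72 h and 11.93 on all 3 arrays at 12 h. That difference of 0.95 brought it within 0.08 of its 0 h level. MANF, a secreted reticulum stress protein chosen after its values were seen, rose by 1.01 with 0.46 left to the starting level. Of 26 genes of reticulum stress and protein degradation 4 rose and 2 fell, EDEM2 by 1.31 up and its relative EDEM1 by 1.54 down, both of which direct misfolded proteins to destruction. The other probe sets of EDEM2 moved by −0.31, not called, and by 0.84, called higher. Of 30 heat shock proteins and chaperones 4 rose, HSPA5 and its partner DNAJB9 (0.90) among them, and 2 fell, one being the mitochondrial chaperonin HSPD1 (−0.76). CCT7 was the one called gene of 7 in the cytosolic chaperonin (−0.60).

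Some genes of growth metabolism recovered by the call, while most ribosome biogenesis genes stayed below their starting level. POLR1C, a subunit shared by RNA polymerases I and III, measured 11.27, 11.31 and 11.33 at 72 h, against 10.22, 10.10 and 10.15 at 12 h, and regained its 0 h level (1.15 up after 1.25 down). POLR3D and POLR3K, subunits of RNA polymerase III that were chosen after their values were seen, came back by 0.86 and 0.95. Yet of the 35 measured ribosome biogenesis genes 26 had fallen at 12 h and 26 were below 0 h at 72 h, with list medians of −1.12 and −0.93. At 72 h against 12 h, 3 of them were higher (POLR1C, with NOP2 and HEATR1 named to complete the count) and 3 lower (NPM1, DDX21, FBL), while 19 were higher and 5 lower at an unadjusted p under 0.05. The median was 0.20, or 0.019 with poly-A scaling, and NOP2 and HEATR1 lost their call when scaled to the poly-A controls. The nucleolar chaperone NPM1 was not called at 12 h (−0.01) and then fell by 1.72 (10.33, 10.29 and 10.50 at 72 h, 12.09, 12.08 and 12.13 at 12 h). Of 44 cytosolic ribosomal protein genes limma called 0 in either step (median −0.10 at 72 h against 12 h), with 0 higher and 17 lower between these times at an unadjusted p under 0.05. Of 18 aminoacyl-tRNA synthetases, 10 of which had fallen at 12 h, FARSA alone was called, with a rise of 0.59. That call was lost when single arrays were left out, while the other 3 probe sets of FARSA moved by 0.44, 0.78 and 0.74, 2 of them called higher.

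Amino acid supply was split, with 1 rise and 5 falls among 24 genes. The glutamine transporter SLC1A5 rose to 9.11, 9.14 and 9.23 at 72 h, against 7.92, 8.03 and 8.10 at 12 h (1.14 ± 0.071), and stayed 0.69 below 0 h. The serine synthesis enzymes went the other way after 12 h. PHGDH measured 9.90, 9.94 and 10.11 at 72 h, against 12.10, 12.08 and 12.12 at 12 h, and all 5 of its probe sets fell. PSAT1 fell by 1.82 and the mitochondrial folate enzyme MTHFD2 by 1.07, and among the 5 genes of this list that fell the share of the difference already present at 24 h was 76.3% or more. AMD1, which makes the aminopropyl donor for polyamines, fell early and came back (0.96), and so did MAT2A, which makes its precursor and was chosen after its values were seen (1.22). Of 14 polyamine enzyme genes AMD1 and AZIN1 (0.62, a call lost in several alternatives, with −0.13 and −0.48 at its other 2 probe sets) rose and 0 fell by limma, with 3 lower at an unadjusted p under 0.05. The pyrimidine synthesis enzyme CAD, chosen in the same way as MAT2A, rose by 0.76 but lost its call with poly-A scaling.

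Of the recovered genes 3 passed their starting level by the call. The tetraspanin TSPAN13 measured 9.99, 9.83 and 9.93 at 72 h and 8.30, 8.17 and 8.31 at 12 h, with a 0 h mean of 8.97 between both groups. NKIRAS1, an inhibitor of NF-kappa-B signalling, rose by 1.29 to 0.63 above 0 h. The sialyltransferase ST3GAL6 measured 10.30, 10.36 and 10.32 at 72 h, against 8.95, 9.04 and 9.03 at 12 h, and also ended 0.63 above 0 h, but its other probe set moved by 0.12 and was not called.

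The early rises that were lost again were led by SMPDL3A, a phosphodiesterase related to acid sphingomyelinase. It measured 5.24, 4.71 and 5.25 at 72 h, against 9.22, 8.99 and 9.21 at 12 h. The 72 h arrays were about 4 units lower, with a difference of −4.07 ± 0.13 (adjusted p = 2.94e-10), or 16.8-fold. The course was 7.93 at 0 h, 9.14 at 12 h, 9.01 at 24 h and 5.07 at 72 h, so that almost the whole fall came after 24 h and the end lay 2.87 below the start. Its other probe set fell by 2.99.

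RHEX, a membrane protein that takes part in erythropoietin receptor signalling, returned to its starting level. It measured 6.90, 6.63 and 7.00 at 72 h and 9.65, 9.52 and 9.67 at 12 h, a fall of 2.77 ± 0.10 that left it 0.17 below 0 h, not called. CCL26, an eosinophil-attracting chemokine, measured 5.87, 5.55 and 6.13 at 72 h, against 8.35, 7.85 and 8.01 at 12 h (−2.22 ± 0.16), and DCT, an enzyme of melanin synthesis, 6.43, 6.50 and 6.36 at 72 h, against 8.13, 8.12 and 8.24 at 12 h (−1.73 ± 0.096). Both were at levels not called against 0 h. DCT was higher in value at 24 h (8.58) than at 12 h, whereas RHEX and CCL26 were already lower (8.70 and 7.41).

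**Figure D3:**
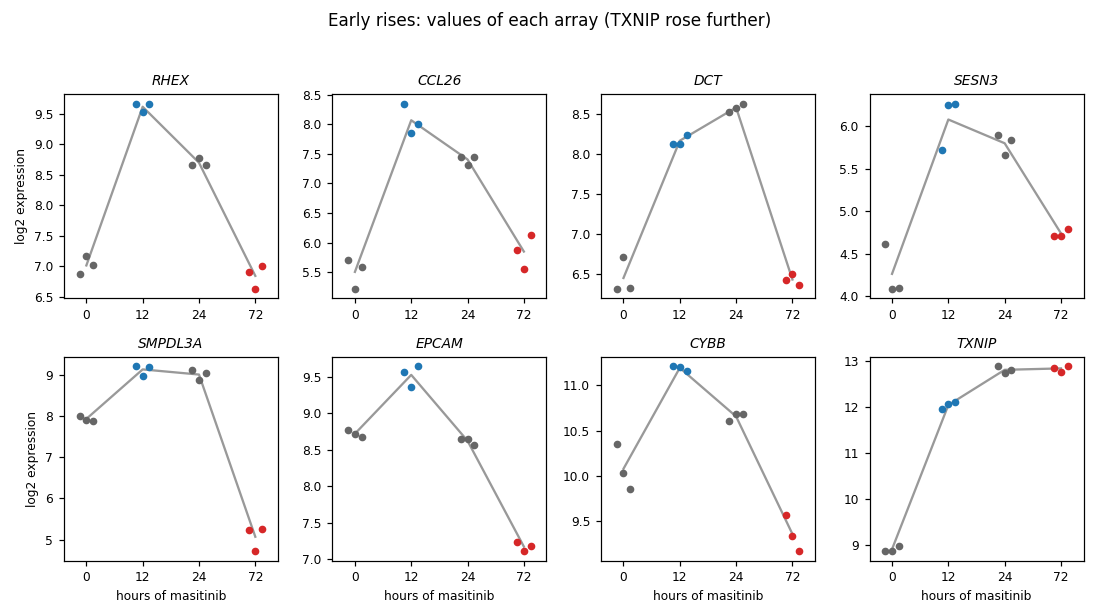
Log2 expression (vertical axes, scaled for each gene) of 8 genes that rose at 12 h, on 3 arrays at each of 0, 12, 24 and 72 h of masitinib (horizontal axes, evenly spaced; blue 12 h, red 72 h, grey the other times; line, means). RHEX, CCL26, DCT and SESN3 returned to levels not called against 0 h, SMPDL3A, EPCAM and CYBB ended below it, and TXNIP rose further.

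By the call, the course of 10 genes crossed the starting level, with a rise at 12 h and a level below 0 h at 72 h. Besides SMPDL3A these included FOLH1B (7.11, 6.97 and 7.00 at 72 h, 9.65, 9.64 and 9.63 at 12 h, 8.84 at 0 h), the adhesion molecule EPCAM (7.23, 7.11 and 7.18 at 72 h, 9.56, 9.36 and 9.64 at 12 h, 8.72 at 0 h) and CYBB, the catalytic subunit of the phagocyte NADPH oxidase (9.57, 9.34 and 9.17 at 72 h, 11.21, 11.20 and 11.16 at 12 h, 10.08 at 0 h). All 3 probe sets of EPCAM and of CYBB fell. ARPP21 (−2.19), MLIP (−2.30) and the keratin KRT18 (−1.93) followed the same course. The Src family kinase LCK measured 6.88, 6.88 and 6.82 at 72 h and 8.12, 8.03 and 8.19 at 12 h (−1.25 ± 0.071, other probe set −0.40 and not called), and the chemokine receptor CXCR6 6.13, 6.07 and 5.89 at 72 h and 7.60, 7.59 and 7.72 at 12 h (−1.61 ± 0.071). LCK was 0.66 and CXCR6 0.64 below 0 h.

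EPCAM and KRT18 are epithelial markers and LCK is a T cell marker, so the full marker lists are given beside them. The summed signal of the 5 epithelial markers was 262 to 268 at 72 h and 912 to 1080 at 12 h, and 2 of 5 fell, while the defining markers KRT8, CDH1 and CLDN4 were low at both times (2.83, 5.05 and 4.54 at 72 h, 3.12, 4.63 and 4.43 at 12 h). For T or NK cells the sum of 9 markers was 499 to 525 at 72 h and 689 to 735 at 12 h. LCK and CD3D (−1.33) fell there and CD3E, CD2 and CD8A differed by 0.00, 0.13 and 0.09. The part of other cells in these falls was not tested, and in bulk RNA fewer cells of a type and less RNA per cell cannot be told apart.

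Targets of FOXO factors, which are released when PI3K signalling stops, showed both persistence and loss. At 12 h 12 of 21 measured members had risen and 12 were above 0 h at 72 h. Between these times 4 rose and 3 fell, with a median of 0.10, or −0.077 with poly-A scaling. TXNIP, an inhibitor of thioredoxin and glucose uptake, measured 12.85, 12.76 and 12.88 at 72 h and 11.96, 12.05 and 12.10 at 12 h (0.80 ± 0.067), 3.92 above 0 h, although its other probe set (0.40) was not called. SESN1, a stress-inducible inhibitor of mTORC1, rose by 0.85 and ended 1.90 above 0 h. Its relative SESN3 measured 4.71, 4.71 and 4.79 at 72 h, against 5.72, 6.25 and 6.27 at 12 h, so it fell by 1.34 and was back at a level not called against 0 h. CCNG2, a cyclin of resting cells, fell by 0.76 and stayed 1.44 above 0 h. MXD4, a MYC antagonist, and DDIT4, an mTORC1 inhibitor, both chosen after their values were seen, gave back 1.02 and 1.04 of early rises of 2.02 and 0.88. The pyruvate dehydrogenase kinase PDK4 was not called at 12 h and fell by 1.31 afterwards, but its other probe set moved by −0.05 and was not called.

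Large falls among genes not called at 12 h were found for mitosis. CENPF, a kinetochore protein, measured 5.92, 5.85 and 4.85 at 72 h and 9.92, 10.14 and 9.96 at 12 h (−4.47 ± 0.47). All its 12 h arrays were above the 0 h arrays, by a mean of 1.29 that was not called. ASPM, which organises spindle poles, measured 6.16, 6.07 and 6.20 at 72 h and 10.26, 10.41 and 10.37 at 12 h (−4.20 ± 0.08, adjusted p = 1.16e-11). The cyclin CCNB2 was near its 0 h level at 12 h (11.72, 11.74 and 11.71) and stood at 7.80, 7.43 and 7.91 at 72 h. The third 72 h array was again the lowest for CENPF and for TOP2A, a topoisomerase of dividing cells (8.60, 8.34 and 7.37 at 72 h, 11.64, 11.94 and 11.91 at 12 h), and without it the differences were −4.13 and −3.36. DEPDC1 fell by 4.04, but its other probe set moved by −0.09 and was not called.

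Of 39 measured genes of mitosis and the spindle 36 fell and 0 rose by limma between 12 h and 72 h (37 and 2 at an unadjusted p under 0.05), with a median of −2.80, whereas only 6 had fallen by 12 h (median −0.19). Most of the change was in place at 24 h, with a median of 90.5% of the 72 h difference among the 36. DNA replication genes started earlier. Of 46 measured, 35 had already fallen at 12 h, 26 were lower at 72 h than at 12 h and 0 higher by limma (36 and 2 at an unadjusted p under 0.05; list medians −0.90 and −0.80), for example the helicase subunit MCM5 (9.50, 9.37 and 9.67 at 72 h, 11.70, 11.74 and 11.78 at 12 h). At 24 h the 26 had covered a median of 118% of the 72 h difference, so the lowest values were those at 24 h for many of them. Of 22 nucleotide synthesis genes 6 fell and 1, CAD, rose. The nucleotide enzyme RRM2 stood at 12.55, 11.68, 8.65 and 9.28 at 0, 12, 24 and 72 h. Of 21 genes of recombination and Fanconi repair 11 fell and 0 rose by limma (13 and 3 at an unadjusted p under 0.05), led by the DNA glycosylase NEIL3 (−2.99). Of 19 genes of histone and chromatin maintenance 9 fell and 0 rose (15 and 0 at an unadjusted p under 0.05), the histone chaperone ASF1B by 1.92 and the methyltransferase EZH2 by 1.54. The CDK inhibitor CDKN1A rose to 9.08, 9.26 and 9.24 at 72 h, against 7.99, 7.56 and 7.75 at 12 h, by its brightest probe set, while its other 2 probe sets moved by 0.16 each and were not called. CDKN2C fell by 0.91, and with CCNG2 these made 1 rise and 2 falls among 10 genes of CDK inhibition and quiescence. Of 21 genes of the G1 cyclins and the E2F and RB families 2 rose and 3 fell, among them the repressor E2F8 (−1.32, other probe set −0.78 and not called).

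**Figure D4:**
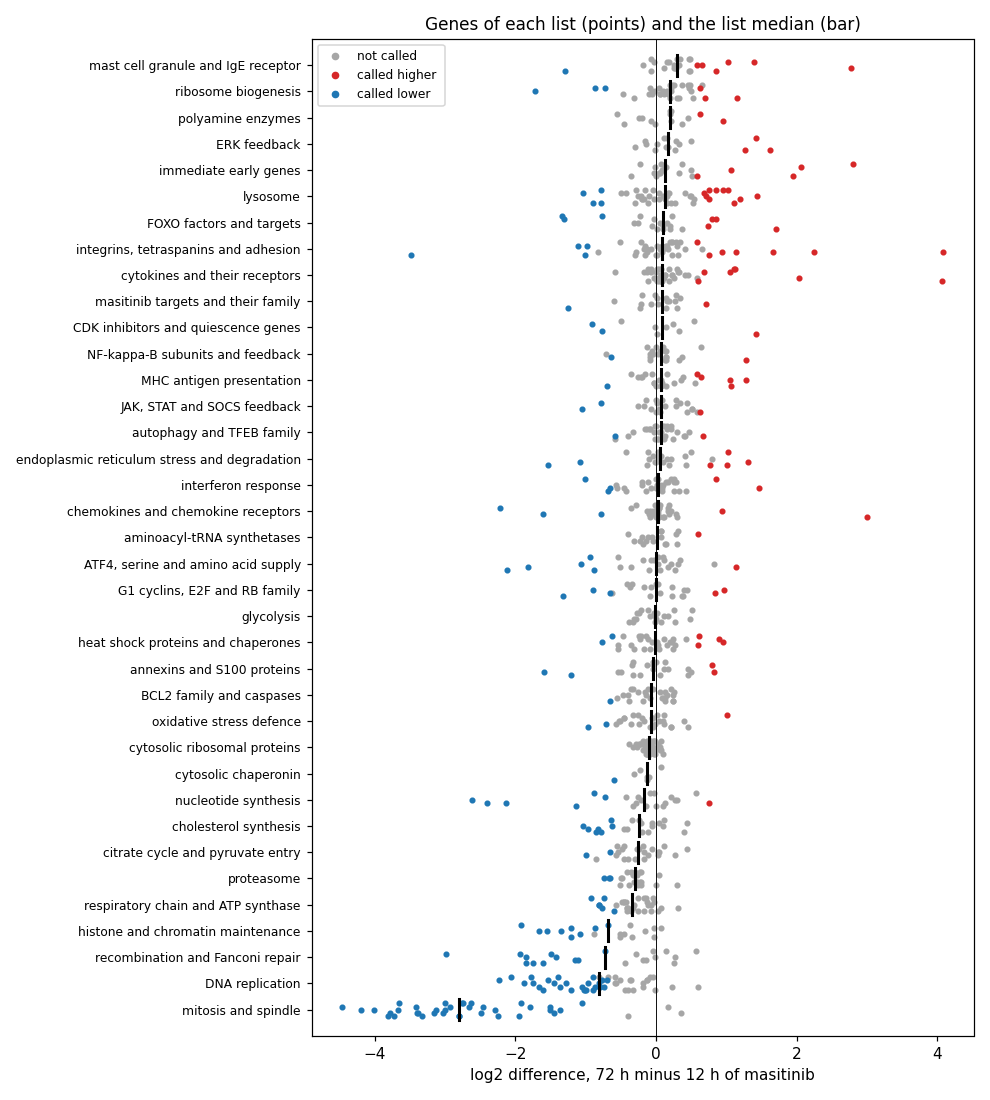
Log2 difference at 72 h minus 12 h (horizontal axis) of each measured gene (points) in 37 gene lists (rows), coloured by call, with the list median as a bar. The medians of mitosis (−2.80) and DNA replication (−0.80) are the lowest, ribosomal proteins lie near 0, and lists such as cytokines and integrins hold single genes far from their median; list medians between 0 and 0.18 turn negative when scaled to the poly-A controls.

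Some falls came mainly after 24 h, as 369 of the 833 genes that fell had less than 50% of the difference at 24 h and 464 had 50% or more. ITGA6, the laminin-binding integrin chain, measured 5.91, 5.12 and 5.86 at 72 h and 9.12, 9.05 and 9.18 at 12 h, with 8.43 at 24 h (−3.49 ± 0.16). Of its other 3 probe sets 1 was called lower. The integrin chain ITGB3 and the melanosomal protein OCA2 (−3.25, other probe set −0.36), chosen after their values were seen, averaged 7.35 and 4.03 at 72 h and 8.36 and 7.28 at 12 h, with 8.17 and 7.09 at 24 h. The calcium-dependent membrane protein ANXA2 fell by 1.60 in steps (9.48 at 24 h), and of 22 annexin, S100 and related genes 2 rose and 2 fell. Over all 833 genes that fell, a median of 56.5% of the difference was present at 24 h, against 90.5% for the mitosis genes.

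Part of the mitochondrial and sterol genes fell, by smaller steps. Of 32 genes of the respiratory chain and ATP synthase 6 fell and 0 rose by limma (25 and 1 at an unadjusted p under 0.05, median −0.34), which is 18.8% lower against 5.51% over all genes. They were led by NDUFA10 (10.17, 10.15 and 10.32 at 72 h, 11.20, 11.04 and 11.17 at 12 h). Of 24 citrate cycle genes 2 (8.33%) fell and 0 rose (16 and 2 at an unadjusted p under 0.05). Of 21 cholesterol synthesis genes 7 (33.3%) fell and 0 rose by limma (12 and 2 at an unadjusted p under 0.05), among them FDPS (−0.85) and INSIG1 (−0.97, other probe set −0.37 and not called). Of 27 proteasome genes 3 (11.1%) fell and 0 rose (24 and 1 at an unadjusted p under 0.05, median −0.30). Of 21 glycolysis genes limma called 0 (median −0.02), with 4 higher and 7 lower at an unadjusted p under 0.05.

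Rises of genes not called at 12 h against 0 h included the largest of the comparison. CD5L, a protein secreted by macrophages, measured 9.05, 9.06 and 9.54 at 72 h and 4.81, 4.81 and 4.73 at 12 h. The 12 h arrays did not differ from 0 h by the call, and the rise of 4.44 ± 0.17 (adjusted p = 1.23e-09), or 21.6-fold, was seen in both probe sets. GKN1, a secreted protein of the gastric mucosa, measured 10.51, 10.44 and 10.75 at 72 h, against 6.43, 5.99 and 6.27 at 12 h (4.34 ± 0.15). All 12 h arrays of GKN1 were already above its 0 h arrays, by a mean of 0.60 that was not called. PECAM1, an adhesion molecule of leukocytes and endothelium, measured 8.12, 8.05 and 8.28 at 72 h, against 4.19, 3.78 and 4.21 at 12 h (4.09 ± 0.18), with all 4 probe sets higher. All 3 genes were called higher at 24 h than at 12 h and higher again at 72 h than at 24 h.

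**Figure D5:**
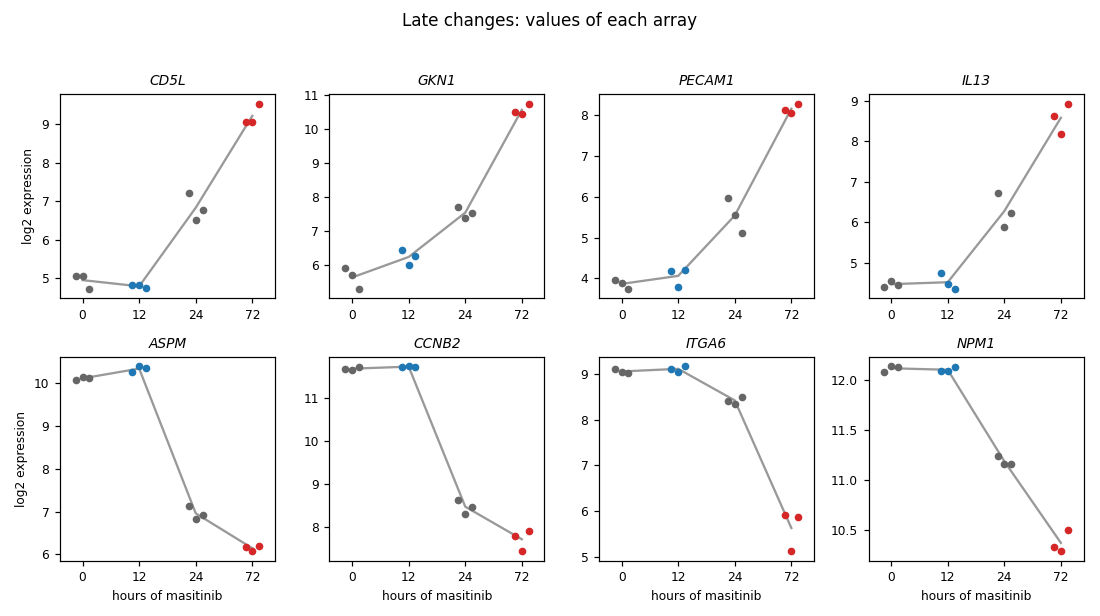
Log2 expression (vertical axes, scaled for each gene) of 8 genes not called at 12 h against 0 h, on 3 arrays at each of 0, 12, 24 and 72 h of masitinib (horizontal axes, evenly spaced; blue 12 h, red 72 h, grey the other times; line, means). CD5L, GKN1, PECAM1 and IL13 climbed through 24 h to 72 h, ASPM and CCNB2 were low from 24 h, ITGA6 fell mainly after 24 h, and NPM1 fell in steps.

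Cytokine genes were among the late rises. Of 45 measured cytokine and receptor genes 7 rose (15.6%, against 4.8% over all genes) and 0 fell by limma (16 and 1 at an unadjusted p under 0.05), although the list median was 0.09, or −0.09 with poly-A scaling. IL13, a type 2 cytokine that mast cells secrete, measured 8.64, 8.18 and 8.94 at 72 h and 4.74, 4.46 and 4.34 at 12 h (4.07 ± 0.21, adjusted p = 1.4e-08). IL6, an inflammatory cytokine, averaged 8.47 at 72 h and 6.44 at 12 h (2.04 ± 0.095), with no overlap of the arrays. The death ligand TNFSF10 rose by 1.11 in both probe sets. IL4 and IL5, neighbours of IL13 in function and named after their values were seen, rose by 0.69 and 0.60 and lost their calls with poly-A scaling, and their other probe sets (0.03 and 0.54) were not called. Of 33 chemokine genes 2 rose (CCL2 and CCL4) and 3 fell (CCL26, CXCR6 and, named to complete the count, CCL24), shares of 6.06% and 9.09% that lie near those over all genes.

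Some genes of mast cell products and identity rose, whereas CPA3, CMA1, HDC, FCER1A and MS4A2 were not called. LTC4S, the enzyme that makes leukotriene C4, had been called higher at 12 h and measured 13.94, 13.95 and 14.02 at 72 h, against 11.21, 11.15 and 11.23 at 12 h (2.77 ± 0.062). The prostaglandin synthase PTGS1 measured 13.27, 13.30 and 13.33 at 72 h and 12.24, 12.29 and 12.31 at 12 h, and the transcription factor GATA2, which maintains mast cell identity, 9.73, 9.60 and 9.47 at 72 h and 7.86, 8.39 and 8.36 at 12 h. Of 25 measured granule and IgE receptor genes 6 rose (24%), 1, the protease CTSG (−1.29), fell and 18 were not called, and the median was 0.30, or 0.13 with poly-A scaling. The serotonin transporter SLC6A4 (2.51) and the serotonin receptor HTR2B (2.62, all 3 probe sets) were named after their values were seen.

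KDR, the main VEGF receptor of endothelium, measured 11.83, 11.67 and 11.84 at 72 h and 9.07, 9.16 and 9.09 at 12 h (2.67 ± 0.071). The sum of 7 endothelial markers was 3854 to 4262 at 72 h and 1006 to 1057 at 12 h, but 1 of 7 rose, and the other 6, none of them called, differed by 0.49 (ESAM), 0.42 (TEK), 0.25 (CLDN5), 0.21 (ERG), 0.14 (CDH5) and −0.02 (VWF). For CD5L, the macrophage sum of 10 markers was 1231 to 1543 at 72 h and 689 to 786 at 12 h with 1 of 10 higher, and CD14, CD163, CSF1R and MARCO were at 6.44, 4.35, 5.38 and 4.89 at 72 h and at 6.42, 4.23, 5.38 and 4.74 at 12 h. Of 3 erythroid markers EPB42 (1.66) and ALAS2 (0.88) rose, with sums of 363 to 430 at 72 h and 177 to 197 at 12 h. Of 4 megakaryocyte markers GP9 rose (1.07), with sums of 1450 to 1548 and 736 to 819. The 7 neutrophil or eosinophil markers summed to 1357 to 1768 at 72 h and 1715 to 2023 at 12 h, mostly through PRG3 (10.30 and 10.66 on the log2 scale, not called), while S100A8 rose by 0.80. B cell markers summed to 166 to 199 and 164 to 187, and fibroblast markers to 182 to 210 and 168 to 189.

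Lysosomal genes moved in both directions. Of 43 measured, 10 rose (23.3%) and 4 fell (9.3%, median 0.12, or −0.055 with poly-A scaling). The protease CTSS averaged 12.33 at 72 h and 10.90 at 12 h (1.43 ± 0.069), and the ganglioside activator GM2A measured 13.24, 13.25 and 13.31 at 72 h, against 12.19, 12.10 and 12.18 at 12 h, both continuing an early rise. The proton pump subunit ATP6V1A fell by 1.04. ABCA5, a lipid transporter, measured 9.27, 9.19 and 9.34 at 72 h and 6.35, 6.31 and 6.56 at 12 h (2.86 ± 0.072). The autophagy list had 1 rise and 1 fall among 31 genes.

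Single genes of antigen presentation and of the interferon response were called in both steps. Of 26 antigen presentation genes 3 had risen at 12 h, and between 12 h and 72 h 5 rose (19.2%) and 1 fell (median 0.07, or −0.10 with poly-A scaling). The immunoproteasome subunit PSMB9 measured 11.69, 11.85 and 11.90 at 72 h and 10.59, 10.49 and 10.55 at 12 h (1.27 ± 0.069). The class I genes DLA88 (1.04, after an early rise of 0.66) and DLA-64 (1.06) have near-identical relatives whose signals these probe sets may share. A median of 17.5% of the rise of the 5 was present at 24 h. Among 32 interferon response genes 5 had risen and 1 fallen at 12 h, and at 72 h against 12 h 2 were higher (6.25%) and 3 lower (9.38%), near the shares over all genes. Examples were the antiviral enzyme OAS2 (7.31, 7.05 and 7.40 at 72 h, 5.83, 5.74 and 5.80 at 12 h) and the GTPase GBP1 (−1.02, all 3 probe sets). NFKBIA, the inhibitor that NF-kappa-B induces as feedback, measured 11.83, 11.90 and 11.84 at 72 h and 10.65, 10.51 and 10.56 at 12 h (1.28 ± 0.061). In its list of 22 genes 1 was called higher and 1 lower (4.55% each), near the shares over all genes. At an unadjusted p under 0.05, 5 were higher and 2 lower. The called fall was that of BIRC3 (−0.64), which lost its call with the methods' analysis of variance and when single arrays were left out.

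Adhesion genes moved in both directions. Of 42 integrin, tetraspanin and adhesion genes 7 rose (16.7%) and 4 fell (9.52%) (median 0.09, or −0.087 with poly-A scaling). Beside PECAM1, the tetraspanin TSPAN2 measured 9.03, 9.01 and 8.68 at 72 h and 6.70, 6.58 and 6.70 at 12 h, while of its other 2 probe sets 1 was higher. The hyaluronan receptor CD44, chosen after its values were seen, rose by 1.14 and its other 2 probe sets (0.19 and 0.78) were not called. ITGA4, chosen in the same way, had risen by 2.03 at 12 h and gave back 1.11 by 72 h (6.47, 6.58 and 6.41 at 72 h, 7.31, 7.73 and 7.74 at 12 h). KITLG, the ligand of KIT, rose by 0.72, a call lost with poly-A scaling, and with LCK made 1 rise and 1 fall among 18 masitinib targets and relatives.

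Genes of cell death, signal relays and oxidative stress defence were called at shares near or below those over all genes (4.8% higher, 5.51% lower). BCL2 family and caspase genes had 0% higher and 3.85% lower. The shares were 4.55% and 9.09% for JAK and STAT genes, and 3.57% and 7.14% for oxidative stress defence. Of 26 BCL2 family and caspase genes APAF1, which activates caspases, alone was called (−0.66, with 4 higher and 8 lower at an unadjusted p under 0.05), and of 22 genes of JAK and STAT signalling and its feedback 2 fell, STAT4 (9.27 on all 3 arrays at 72 h, 10.28, 10.30 and 10.37 at 12 h) and STAT5B (−0.78), and 1 rose. Of 28 genes of oxidative stress defence the glutathione transferase GSTA4 rose by 1.01 and 2 fell, NQO1 among them, whose other 2 probe sets (0.09 and −0.21) were not called.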

How the data were processed

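RNA of C2 cells was hybridised by the authors to 12 Affymetrix Canine Genome 2.0 arrays, 3 each at 0, 12, 24 and 72 h of 100 nM masitinib. Per the paper's methods, scans were processed in Partek Genomics Suite 6.4 with its gcRMA workflow (RMA background correction, quantile normalization, median polish), so a shift common to most transcripts is removed. The labels name RMA only, so which background correction was used is not settled, and differences between low signals depend on it. Each deposited number is a log2 expression value of 1 probe set on 1 array. Base 2 was checked on 1999 supplementary entries, with a largest relative deviation of 4.1e-05. The genome build is not given in the sources used here. The number of arrays limits the precision.

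Values were used as deposited. limma 3.58.1 (R 4.3.3, lmFit and eBayes, two-sided) was fitted to all 12 arrays with 1 coefficient per time point, with Benjamini-Hochberg adjustment over 42924 probe sets. The thresholds and the omission of probe sets without a name are those of the paper's methods. Symbols came from the platform annotation: 29254 probe sets had 1 symbol, 439 several and 13231 none, and 27680 were matched by Entrez identifier to the canine assembly UU_Cfam_GSD_1.0 names, with 0 changed. Of 15115 genes 8254 had more than 1 probe set, and no 2 arrays were identical. Tables and plots were made in Python 3.11.15 with pandas 2.3.3, numpy 2.4.6 and matplotlib 3.10.9. The fit was tested on simulated data.

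The 37 gene lists, 10 cell type lists and the rule for named genes were chosen with earlier results of these data known. The rule took the 12 largest non-overlapping rises and falls, the 10 largest returns each way, up to 4 called genes per list, up to 5 genes called on opposite sides of 0 h each way, the masitinib targets, called cell type markers, and DUSP6, EGR1, FOS and TXNIP, 156 genes in all. Another 23 genes were added after their values were seen, and those named are marked as such. Alternatives were other thresholds, the methods' analysis of variance, other scalings, filters, models, probe set choices, a replicate block and leaving out each array.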

Additional observations from a re-analysis of the deposited data

Results flagged for a closer look

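Among the 13670 probe sets with no gene symbol or several, which entered no count above, 1273 (9.31%) were called between 72 h and 12 h. Of these 834 were higher and 439 lower, so 34.5% of these calls were falls, against 57.5% among probe sets with 1 symbol. The lowest difference among them was −4.55 and the highest 2.87 on the log2 scale.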

How the results depend on the processing

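With a threshold of more than 2-fold, 359 probe sets were higher and 675 lower (65.3% lower), 23 early falls came back up and 33 early rises came back down, and with more than 4-fold the values were 56, 183, 76.6%, 2 and 2. Scaling to the poly-A controls moved all values by −0.18 at 72 h against 12 h and gave 638 higher and 2711 lower (80.9% lower), and 2232 of the 2780 calls remained. List medians between 0 and 0.18 turned negative there, among them ERK feedback (−0.014), immediate early genes (−0.0489), FOXO (−0.0768), lysosome (−0.0548), antigen presentation (−0.103) and integrins (−0.0867). No named gene that was called changed direction in any alternative run, but many of these runs could not change a direction. Other thresholds, the analysis of variance and the fit of 6 arrays leave a difference unchanged, and the poly-A shift is smaller than 1.5-fold. Another choice of probe set was tried for list medians only. For example, the other probe sets of AZIN1 have the opposite sign (−0.13 and −0.48). Leaving out 1 array gave 1037 to 1168 higher, 1375 to 1583 lower, 54.3% to 59.4% lower, 120 to 143 early falls that came back up and 100 to 133 early rises that came back down. Without the third 72 h array, low in KIT and CENPF, 1082 were higher and 1554 lower. The methods' analysis of variance with Storey q-values called 1035 higher and 1404 lower. AZIN1, BIRC3, S100A8, ULK2, FARSA, CCT7, FH, IL5 and EPOR lost their call when single arrays were left out. Among the genes described above AZIN1, BIRC3, S100A8, IL4 and STAT5B did so when only the 6 arrays of both times were fitted.

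Replicate numbers did not pair the arrays: arrays of 72 h and 12 h with the same number correlated in their deviations at r = −0.122, 0.190 and −0.043. With the replicate block 1147 probe sets were higher and 1540 lower, 2668 of these 2687 being among the 2780, and no named gene changed its call.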
